A study of Mus musculus with 24 samples.

Results

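The 33 genes described here belong to families that set or remove acetyl groups, on histones or other substrates, or bridge nuclear receptors to chromatin. They were chosen by name from the gene symbols of the count table: 9 acetyltransferases (Crebbp, Ep300, Kat2a, Kat2b, Kat5, Kat6a, Kat6b, Kat7, Kat8), 11 zinc-dependent deacetylases (Hdac1 to Hdac11), 7 NAD-dependent deacylases (Sirt1 to Sirt7), 3 subunits of the NCoR corepressor (Ncor1, Tbl1x, Tbl1xr1) and 3 steroid receptor coactivators (Ncoa1, Ncoa2, Ncoa3). Earlier results of these data were known when they were chosen. All 33 were among the 55414 genes counted and among the 14464 genes whose highest count reached 30 and which were tested. RNA came from the visual cortex of 24 male C57BL/6J mice aged 8 weeks and kept on a reversed light cycle, with 1 poly-A library per mouse. The dark group (n = 6) received phosphate-buffered saline as vehicle and stayed in the dark. The light group (n = 6) received vehicle and was placed in light for 2.5 h. The psilocybin-dark group (n = 6) received 5 mg/kg psilocybin by intraperitoneal injection and stayed in the dark. The psilocybin-light group (n = 6) received 5 mg/kg psilocybin and was placed in light for 2.5 h. All mice were killed after 2.5 h, in the dark phase of their cycle. The comparisons ask how light, the psychedelic psilocybin and their combination differ from darkness in the cortical area that receives vision.

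Acetylation of histone tails neutralises their charge, opens chromatin and creates binding sites for bromodomain proteins, and deacetylases reverse it. In neurons, transcription factors such as CREB recruit the acetyltransferases Crebbp and Ep300 to activity-regulated genes. Class IIa deacetylases shuttle between nucleus and cytoplasm and hold MEF2 factors in check. The NCoR complex, built on Ncor1 with Tbl1x or Tbl1xr1, carries Hdac3 to unliganded nuclear receptors, and the Ncoa proteins replace it when ligand binds.

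Total counts per mouse lay between 13552516 and 17906994, with group medians between 15364068 and 16966620. For all 24 libraries the sample labels and the column headings of the study's supplement name opposite light exposures and the same drug. The headings were followed, and each mouse is called by its group and the number of its library (dark 1 to 6, psilocybin-dark 7 to 12, light 13 to 18, psilocybin-light 19 to 24). Under the labels' exposure the dark and light groups would exchange names, as would the psilocybin-dark and psilocybin-light groups, and every direction between light and darkness given here would turn. The 8 markers of cortical glutamatergic neurons were detected in every group, with a summed level of 29562 to 91430 normalized counts in dark mice and 67335 to 97524 in the other mice. The summed level of 11 hippocampal markers was 1918 to 6384 in dark mice and 1008 to 1459 in the other 18 mice, with no overlap. The summed level of 9 cerebellar markers was 37822.5 and 79142.5 in dark mice 1 and 6, 36402 in psilocybin-dark mouse 12 and 22873.5 in light mouse 18, against 552 to 3195 in the other mice. The 10 markers of hypothalamic and subcortical neurons summed to 425 to 4906 in dark mice and 98.8 to 624 in the others. The 7 striatal markers summed to 1959 to 3079 in dark, 3461 to 4042 in light, 2820.5 to 3719 in psilocybin-dark and 3338 to 4388 in psilocybin-light mice. Of 7 microglial markers, 4, 1 and 3 were called higher and none lower in light, psilocybin-dark and psilocybin-light against dark mice. Of 7 astrocyte markers, 2, 2 and 3 were lower and 1 was higher in each, and Gja1 was lower in psilocybin-light mice against every other group (-0.85, -0.49 and -0.48 against dark, light and psilocybin-dark mice). How far other tissue or cell makeup entered these values was not tested. In bulk RNA fewer cells of a type and less RNA per cell cannot be told apart. Values below are normalized counts (counts scaled to an effective library of 16058300). Log2 fold changes ± standard error come from edgeR's quasi-likelihood test over all 24 mice. A gene is called changed at a Benjamini-Hochberg adjusted p under 0.05 over all genes tested.

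Against the dark group, 11 of the 33 members (33.3%) were called in the light group, 6 higher and 5 lower, where 31.9% of all genes tested were called, 15.4% higher and 16.5% lower. In the psilocybin-dark group 7 members (21.2%) were called, 5 higher and 2 lower, against 24.7% of all genes, 11.9% higher and 12.8% lower. In the psilocybin-light group 18 members (54.5%) were called, 9 higher and 9 lower, against 38.4% of all genes, 17.4% higher and 21% lower. These 3 comparisons share the 6 dark mice. The first 2 shares lie near those over all genes. The members were chosen with earlier results of these data known, so their shares do not test the list. Psilocybin-light mice had 3 members (9.09%) called against light mice, all lower, where 0.608% of all genes were called, 0.0553% higher and 0.553% lower. Against psilocybin-dark mice they had 6 (18.2%), 1 higher and 5 lower, where 6.38% of all genes were called, 2.6% higher and 3.78% lower. No member was called between the psilocybin-dark and light groups by edgeR, where 0.456% of all genes were called, 0.194% higher and 0.263% lower. In that comparison 13 members (39.4%) had an unadjusted p under 0.05 in edgeR's test, against 14.4% of all genes. DESeq2 called 3 members there and 405 of all genes.

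Mice of the groups compared did not overlap for 6 members in light against dark mice (10% of all genes), 0 in psilocybin-dark against dark mice (5.58%), 6 in psilocybin-light against dark mice (15.8%). They did not overlap for 2 in psilocybin-light against light mice (Kat6b and Hdac5, with 1.62% of all genes), 6 in psilocybin-light against psilocybin-dark mice (6.42%) and 2 in psilocybin-dark against light mice (Hdac7 and Sirt3, with 2.21%). The median log2 fold change of the 33 members was 0.03 in light, 0.05 in psilocybin-dark and 0.00 in psilocybin-light mice against dark mice, beside -0.01, -0.02 and -0.02 over all genes. It was -0.01 for psilocybin-light against light mice, as over all genes, and -0.06 for psilocybin-light against psilocybin-dark mice, beside -0.01 over all genes.

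**Figure D1:**
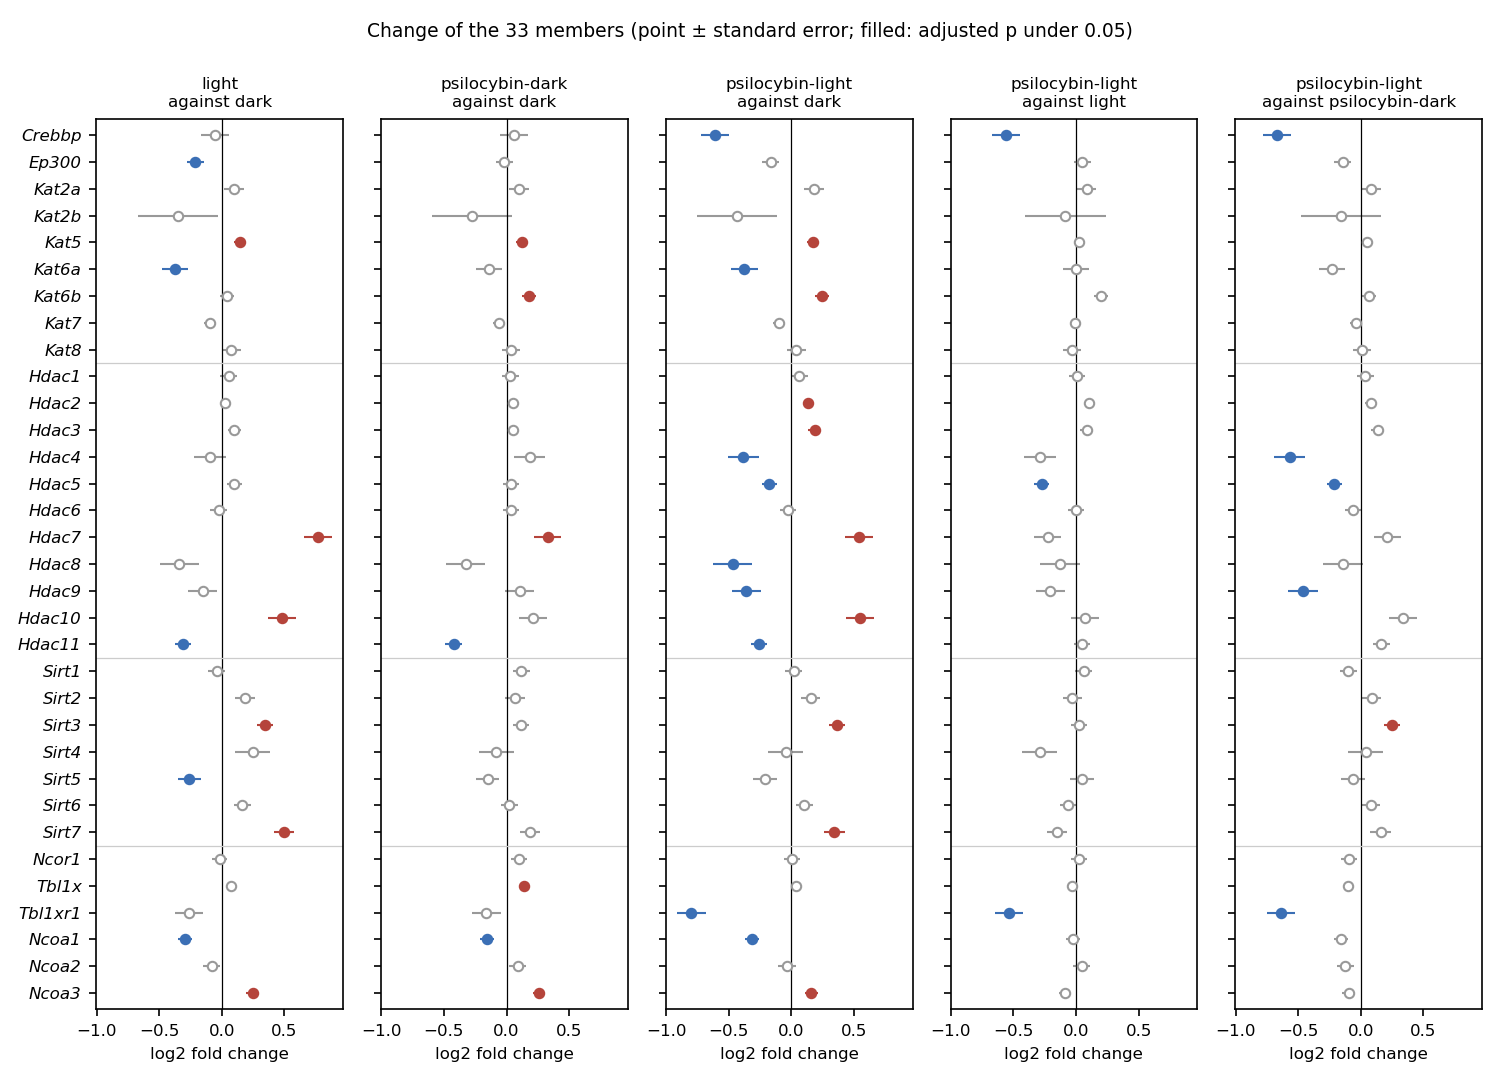
Log2 fold change (horizontal axis) of each of the 33 members in 5 comparisons, as the fitted value ± standard error, filled red where called higher and blue where called lower at an adjusted p under 0.05. Crebbp, Tbl1xr1 and Hdac5 are the members filled blue in all 3 panels that set psilocybin-light mice against another group.

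The members that passed the threshold in psilocybin-light mice against each of the other groups numbered 3, all lower: Crebbp, the CREB-binding acetyltransferase, Tbl1xr1, a subunit of the NCoR corepressor, and Hdac5, a class IIa deacetylase. Of all genes tested, 0.366% were lower and 0.0207% higher by this rule. That share is no test of the members, which were chosen with earlier results known. The 250 bases before the outermost annotated start of these genes (GRCm39, read 5′ to 3′ on the strand of the gene) are printed because the 3 fell together. Capitals mark matches, on either strand, to the CRE palindrome TGACGTCA, its half-site TGACG, the E-box CACGTG, the AP-1 site TGAGTCA, the EGR site GCGTGGGCG, the GC box GGGCGG, the CCAAT box CCAAT and the TATA box TATAAA. The half-site lies within the palindrome, so a match to the palindrome would count for both.
Crebbp, chr16:4031862-4032111, minus strand: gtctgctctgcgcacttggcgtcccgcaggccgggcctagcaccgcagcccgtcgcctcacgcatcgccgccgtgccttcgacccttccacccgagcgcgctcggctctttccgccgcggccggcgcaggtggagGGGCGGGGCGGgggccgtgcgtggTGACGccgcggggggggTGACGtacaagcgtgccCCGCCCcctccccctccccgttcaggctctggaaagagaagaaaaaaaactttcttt
Tbl1xr1, chr3:22129697-22129946, plus strand: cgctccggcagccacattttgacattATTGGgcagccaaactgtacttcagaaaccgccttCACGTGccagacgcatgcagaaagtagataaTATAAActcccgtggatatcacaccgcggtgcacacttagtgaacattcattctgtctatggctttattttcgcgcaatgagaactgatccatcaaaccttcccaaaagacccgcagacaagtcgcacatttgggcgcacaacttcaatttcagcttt
Hdac5, chr11:102121073-102121322, minus strand: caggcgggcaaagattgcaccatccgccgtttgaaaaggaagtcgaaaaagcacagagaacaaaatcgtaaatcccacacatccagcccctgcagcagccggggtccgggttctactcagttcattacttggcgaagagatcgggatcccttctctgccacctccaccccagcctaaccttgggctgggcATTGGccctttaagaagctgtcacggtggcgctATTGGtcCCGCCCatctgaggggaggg

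The Crebbp window holds CRE half-sites 91 and 74 bases before the start and GC boxes 115, 110 and 57 bases before it, the first 2 of which overlap. The Tbl1xr1 window holds a CCAAT box, an E-box and a TATA box, 224, 189 and 158 bases before the start. The Hdac5 window holds CCAAT boxes 60 and 27 bases and a GC box 20 bases before the start. The 3 windows have no motif in common. Among the windows of 14426 tested genes, 19.9% held the CRE half-site, 38.5% the GC box, 34.8% the CCAAT box, 6.80% the E-box and 8.49% the TATA box. Among those of the 33 members the shares were 18.2%, 36.4%, 30.3%, 9.09% and 9.09%. The CRE palindrome and the EGR site were in no member's window and in 1.46% and 0.582% of all windows. The AP-1 site was in 6.06% of the members' windows (Kat2b and Hdac4) and 3.31% of all windows. G and C made up 71.2% of the Crebbp window, 46.8% of the Tbl1xr1 window and 56.8% of the Hdac5 window, with a median of 54.0% both over the members and over all windows. The matches are letters in these windows, not measured sites.

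Crebbp (ENSMUSG00000022521, chr16:3899192-4031861) had normalized counts of 851, 934 and 1080.1 (lowest, median and highest) in dark mice, 609, 989.85 and 1159.9 in light mice, 949.6, 977 and 1041 in psilocybin-dark mice and 546, 630.4 and 649 in psilocybin-light mice. Every psilocybin-light mouse lay below every dark and every psilocybin-dark mouse. Light mice 17 (609) and 18 (657) lay in or just above the psilocybin-light range and the other 4 light mice at 984 to 1159.9. Crebbp fell by 34.5% against dark mice (log2 fold change -0.61 ± 0.11, adjusted p = 0.000211). Its log2 fold change was -0.56 ± 0.11 against light mice (adjusted p = 0.0266) and -0.67 ± 0.11 against psilocybin-dark mice (adjusted p = 0.00145). The exact permutation test gave p = 0.00216, the smallest that all splits of 6 against 6 mice allow, against dark and psilocybin-dark mice, and p = 0.0238 against light mice. Neither light alone (-0.05 ± 0.11, adjusted p = 0.755) nor psilocybin alone (0.06 ± 0.11, adjusted p = 0.76) gave a called change against dark mice. The interaction of psilocybin and light was -0.61 ± 0.16 (adjusted p = 0.0203).

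Tbl1xr1 (ENSMUSG00000027630, chr3:22129947-22270770) had 785, 995 and 1116 normalized counts in dark mice, 563, 917 and 966 in light mice, 809, 849.9 and 1009 in psilocybin-dark mice and 517, 567 and 614 in psilocybin-light mice. As with Crebbp, the psilocybin-light mice lay below all dark and psilocybin-dark mice. Light mice 17 (563) and 18 (609) lay within the psilocybin-light range, apart from the other 4 light mice (912 to 966). Tbl1xr1 fell by 42.5% against dark mice (-0.80 ± 0.11, adjusted p = 1.47e-05), the smallest adjusted p of any member in any comparison. Its log2 fold change was -0.53 ± 0.11 against light mice (adjusted p = 0.0328) and -0.64 ± 0.11 against psilocybin-dark mice (adjusted p = 0.00188). The interaction was -0.37 ± 0.16 (adjusted p = 0.147) and was not called.

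Hdac5 (ENSMUSG00000008855, chr11:102085245-102121072) is shown by mouse because it is among these 3 genes, a choice made after its values were seen. It had 3036, 3492 and 4156 normalized counts in dark mice, 3338, 3802 and 4076 in light mice, 3261, 3708 and 3750.2 in psilocybin-dark mice and 2916, 3099 and 3323 in psilocybin-light mice. The psilocybin-light mice lay below every light mouse, the nearest at 3323 and 3338, and overlapped both groups kept in the dark. Hdac5 fell by 17.3% against light mice (-0.27 ± 0.06, adjusted p = 0.0363), with log2 fold changes of -0.21 ± 0.06 against psilocybin-dark mice (adjusted p = 0.0355) and -0.18 ± 0.06 against dark mice (adjusted p = 0.0235) and an interaction of -0.31 ± 0.08 (adjusted p = 0.026). G6pc3 shares 2826 of the 9422 exonic bases of Hdac5 on the opposite strand and had a log2 fold change of 0.01 (adjusted p = 0.98) against light mice. Since the strand setting of the counting is not stated, reads of the 2 genes cannot be told apart there.

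The calls against light mice were near the threshold. With each mouse left out in turn, Crebbp was called in 16 of 24 fits, Tbl1xr1 in 14 and Hdac5 in 13, and the adjusted p rose as far as 0.0855, 0.0986 and 0.129, with no change of direction. All 3 calls were lost when any of light mice 13, 14, 15 and 16 or psilocybin-light mice 19, 20, 21 and 24 was left out. Those of Tbl1xr1 and Hdac5 were also lost without psilocybin-light mouse 22 or 23, and that of Hdac5 without light mouse 18. With no filter on low counts and with only the groups compared, Crebbp and Tbl1xr1 lost the call (adjusted p up to 0.0989 and 0.0876). Hdac5 lost it with no filter, with edgeR's filterByExpr and without light mouse 18 and psilocybin-dark mouse 12 (up to 0.104). All groups share 1 estimate of the spread. The SD of Crebbp was 24.6% of the mean in light and 5.97% in psilocybin-light mice. Without light mouse 17 the changes of Crebbp and Tbl1xr1 were -0.64 (adjusted p = 0.00187) and -0.61 (adjusted p = 0.00426). Without light mouse 18 they were -0.64 (adjusted p = 0.00593) and -0.61 (adjusted p = 0.0111). Total counts of light mice 17 and 18 were 15410035 and 15600699 against 15444614 to 17906994 in the other light mice, and their cerebellar sums were 936 and 22873.5. The part of these values in the comparison was not tested.

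**Figure D2:**
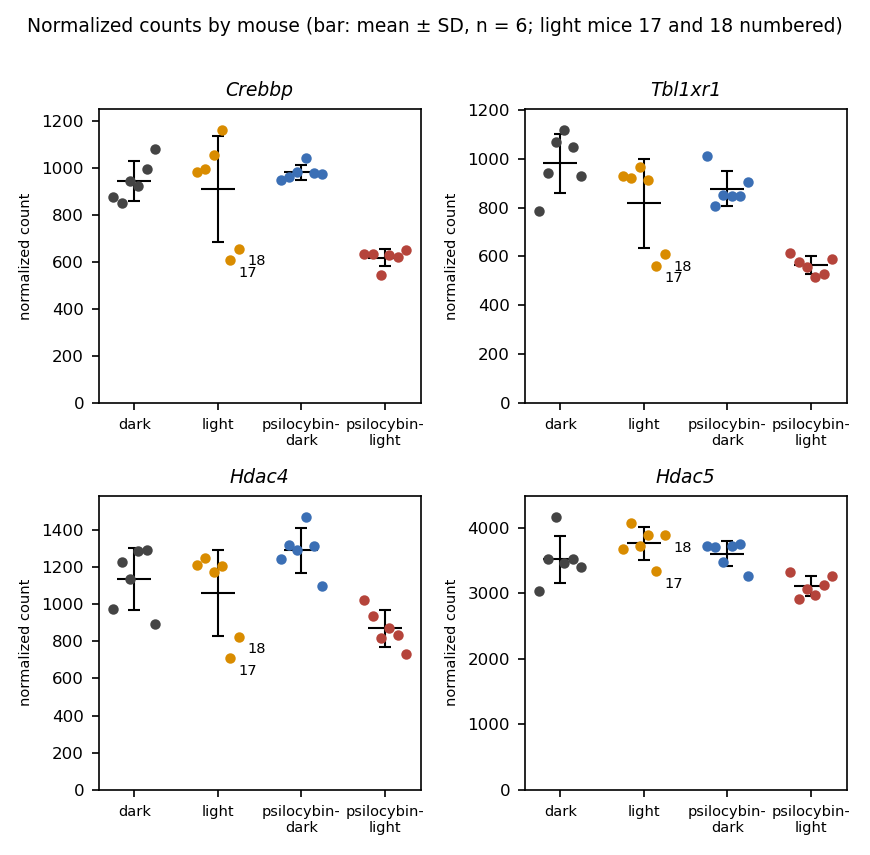
Normalized counts (vertical axis, from 0) of Crebbp, Tbl1xr1, Hdac4 and Hdac5 in each mouse of the 4 groups, with bars for the mean ± SD (n = 6). Light mice 17 and 18, numbered, lie at 609 and 657 for Crebbp and at 563 and 609 for Tbl1xr1, among or beside the psilocybin-light mice.

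Hdac4 and Hdac9, class IIa deacetylases like Hdac5, were also lower in psilocybin-light than in psilocybin-dark mice. Hdac4 (ENSMUSG00000026313, chr1:91855937-92123421) had 895, 1179 and 1293 normalized counts in dark mice, 711, 1187 and 1247 in light mice, 1096, 1301 and 1467 in psilocybin-dark mice and 731, 851 and 1025 in psilocybin-light mice. All psilocybin-light mice lay below all psilocybin-dark mice. Light mice 17 (711) and 18 (824) again lay in or below the psilocybin-light range, with the other 4 at 1171 to 1247. Hdac4 fell by 32.6% against psilocybin-dark mice (-0.57 ± 0.13, adjusted p = 0.00828) and was at -0.38 ± 0.13 against dark mice (adjusted p = 0.019), a call lost without psilocybin-light mouse 24 (adjusted p = 0.0579). The change against light mice was -0.29 ± 0.13 (adjusted p = 0.439). Hdac9 fell by 27.4% against psilocybin-dark mice (-0.46 ± 0.12, adjusted p = 0.0207), with no overlap (448 to 639 and 674 to 1018 normalized counts), and was at -0.36 ± 0.12 against dark mice (adjusted p = 0.0205). All 4 class IIa enzymes were called in psilocybin-light against dark mice, 3 lower and Hdac7 higher, where 38.4% of all genes were called, with a median log2 fold change of -0.27 beside -0.02 over all genes. In light and in psilocybin-dark against dark mice 1 of the 4, Hdac7, was called (31.9% and 24.7% of all genes).

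The members that rose in light were the class IIa deacetylase Hdac7, the polyamine deacetylase Hdac10, the mitochondrial deacetylase Sirt3, the nucleolar deacylase Sirt7, the coactivator Ncoa3 and the acetyltransferase Kat5, 6 in all or 18.2% of members, against 15.4% of all genes. The 6 members whose light and dark mice did not overlap were Hdac7, Hdac10, Sirt3, Sirt7 and Ncoa3, which were higher, and Sirt5, which was lower. Hdac7 (ENSMUSG00000022475, chr15:97687372-97742383) had 154, 225 and 276 normalized counts in dark mice, 351, 366 and 391 in light mice, 258, 268 and 298 in psilocybin-dark mice and 257, 304 and 416 in psilocybin-light mice. Light mice lay above all dark and all psilocybin-dark mice, the psilocybin-dark mice overlapped the upper end of the dark range, and the psilocybin-light mice spread from the psilocybin-dark to beyond the light range. Hdac7 was 1.70-fold higher in light (0.77 ± 0.11, adjusted p = 2.35e-05), 1.26-fold higher in psilocybin-dark (0.33 ± 0.11, adjusted p = 0.0337) and 1.45-fold higher in psilocybin-light mice (0.54 ± 0.11, adjusted p = 0.000544), each against dark mice. The call in psilocybin-dark mice was kept in 4 of 9 other settings (changes of 0.19 to 0.54, adjusted p up to 0.26). It was lost without dark mice 1 and 6 and without the 4 mice with the highest cerebellar sums. No filter on low counts, only the groups compared, or the hippocampal marker level as a covariate also removed it. Dark mice 6 (154) and 1 (191) had the lowest values. The interaction was -0.56 ± 0.16 (adjusted p = 0.029), so the combined change was smaller than the sum of the 2 single changes. Slc48a1, which shares 24.1% of the exonic bases of Hdac7 on the opposite strand, also rose in light mice (0.34, adjusted p = 9.51e-05).

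Hdac10 (ENSMUSG00000062906, chr15:89007505-89013076) had 87.2, 111 and 125 normalized counts in dark mice, 131, 153 and 177 in light mice, 114, 119 and 147 in psilocybin-dark mice and 127, 164 and 200.4 in psilocybin-light mice. Both groups placed in light lay above all dark mice. It was 1.39-fold higher in light (0.48 ± 0.11, adjusted p = 0.00248) and 1.46-fold higher in psilocybin-light mice (0.55 ± 0.11, adjusted p = 0.000554). In psilocybin-dark mice the change was 0.21 ± 0.11 (adjusted p = 0.181). Sirt3 (ENSMUSG00000025486, chr7:140443577-140462311) had 488, 554 and 605 normalized counts in dark mice, 639, 704 and 756 in light mice, 523.5, 607 and 629 in psilocybin-dark mice and 655, 700.1 and 806 in psilocybin-light mice. For Sirt3, every mouse placed in light exceeded every mouse kept in the dark, with or without psilocybin. It rose by 0.34 ± 0.06 in light mice (adjusted p = 0.000281) and 0.37 ± 0.06 in psilocybin-light mice (adjusted p = 9.65e-05) against dark mice, and by 0.25 ± 0.06 in psilocybin-light against psilocybin-dark mice (adjusted p = 0.0187), where it was the only member called higher. Sirt7 (ENSMUSG00000025138, chr11:120509197-120516066) had 306, 334.5 and 365 normalized counts in dark mice, 413, 459 and 532 in light mice, 336, 372 and 445 in psilocybin-dark mice and 374, 412 and 509 in psilocybin-light mice. Light and psilocybin-light mice again lay above all dark mice, with changes of 0.50 ± 0.08 (adjusted p = 9.68e-05) and 0.34 ± 0.08 (adjusted p = 0.00206), beside 0.19 ± 0.08 (adjusted p = 0.103) in psilocybin-dark mice.

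**Figure D3:**
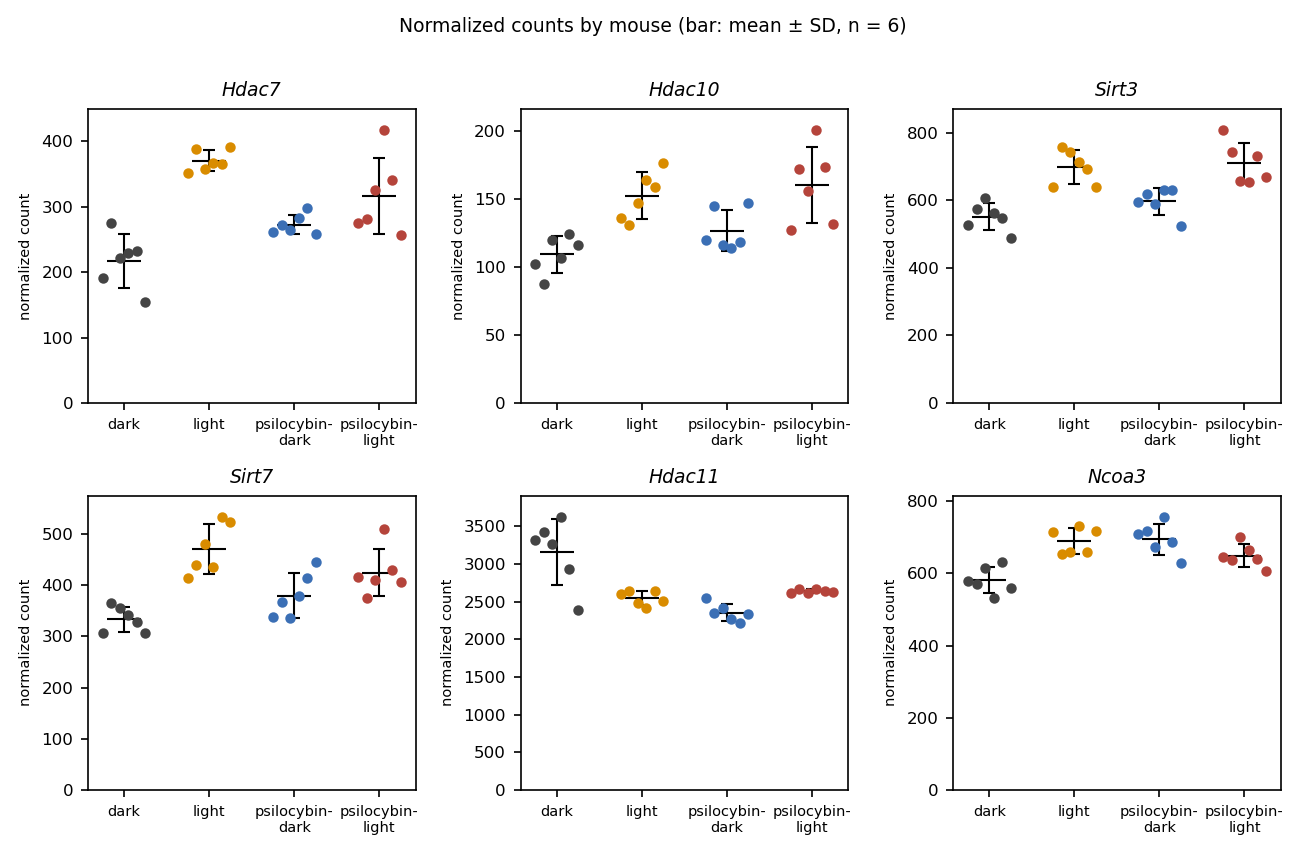
Normalized counts (vertical axis, from 0) of 6 members in each mouse, with bars for the mean ± SD (n = 6). For Sirt3 the lowest light mouse (639) lies above the highest dark (605) and psilocybin-dark (629) mice, and for Hdac11 the dark group (2390 to 3617) spreads more widely than the psilocybin-light group (2611 to 2673).

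Hdac11, the class IV deacetylase, and the coactivators Ncoa1 and Ncoa3 were called in all 3 groups against dark mice, as were Kat5 and Hdac7. Hdac11 (ENSMUSG00000034245, chr6:91133642-91151695) had 2390, 3291 and 3617 normalized counts in dark mice, 2417, 2558.5 and 2646 in light mice, 2214, 2337 and 2547 in psilocybin-dark mice and 2611, 2633 and 2673 in psilocybin-light mice. Dark mouse 6 (2390) lay among the other groups and the remaining 5 dark mice above all of them. Hdac11 fell by 0.31 ± 0.07 in light (adjusted p = 0.00109), by 0.42 ± 0.07 in psilocybin-dark (adjusted p = 9.84e-05) and by 0.26 ± 0.07 in psilocybin-light mice (adjusted p = 0.00344) on the log2 scale, with an interaction of 0.47 ± 0.09 (adjusted p = 0.00458). These calls were lost with the hippocampal marker level as a covariate, where the change in light mice was -0.07 (adjusted p = 0.65) and that in psilocybin-light mice 0.00 (adjusted p = 0.993). The summed level of these markers did not overlap between dark and other mice. In this fit the marker level and the dark group can therefore hardly be told apart, for Hdac11 or any other member.

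Ncoa3 (ENSMUSG00000027678, chr2:165834534-165915162) had 532, 574 and 632 normalized counts in dark mice, 652, 687 and 731 in light mice, 628, 698 and 755 in psilocybin-dark mice and 607, 642 and 699.8 in psilocybin-light mice. Light mice lay above all dark mice, and the psilocybin groups overlapped the upper end of the dark range. Ncoa3 rose by 0.25 ± 0.05 in light (adjusted p = 0.00067), 0.26 ± 0.05 in psilocybin-dark (adjusted p = 0.00068) and 0.16 ± 0.05 in psilocybin-light mice (adjusted p = 0.0138), with an interaction of -0.34 ± 0.07 (adjusted p = 0.00577). Ncoa1 went the other way, by -0.29 ± 0.06 (adjusted p = 0.000388), -0.15 ± 0.06 (adjusted p = 0.0457) and -0.31 ± 0.06 (adjusted p = 0.00013) in the same order. The call of Ncoa1 in psilocybin-dark mice was kept in 6 of 24 fits that left out a mouse and in 4 of 9 other settings. Ncoa2 was called in no comparison, with changes of -0.08, 0.09 and -0.04 against the same dark mice. In all, 5 members (15.2%) were called in the interaction, Crebbp, Hdac5, Hdac7 and Ncoa3 lower and Hdac11 higher, where 8.75% of all genes were called, 4.86% lower and 3.89% higher. With the hippocampal marker level as a covariate, 6, 0 and 9 members were called in light, psilocybin-dark and psilocybin-light against dark mice and 0 in the interaction. In that edgeR fit 0 of all genes were called in psilocybin-dark against dark mice and 0 in the interaction, with 1458 and 1575 at an unadjusted p under 0.05. Of the calls against dark mice, those of Ep300, Hdac7, Hdac10, Sirt7 and Ncoa1 in light mice and those of Crebbp, Hdac3, Hdac5, Hdac7, Hdac10, Sirt7, Tbl1xr1 and Ncoa1 in psilocybin-light mice remained in that fit. The others were lost. Crebbp, Tbl1xr1 and Hdac5 were still called lower in psilocybin-light mice against each other group.

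Of the acetyltransferases, Kat6b, which acetylates histone H3, was called higher in both psilocybin groups against dark mice. Kat6b (ENSMUSG00000021767, chr14:21531502-21722546) had 677, 767 and 817 normalized counts in dark mice, 720.0, 786 and 818 in light mice, 784, 859 and 959 in psilocybin-dark mice and 824, 888 and 959 in psilocybin-light mice. Psilocybin-light mice lay above all dark and all light mice, and psilocybin-dark mice overlapped both. The changes were 0.18 ± 0.06 in psilocybin-dark (adjusted p = 0.0208), 0.25 ± 0.06 in psilocybin-light (adjusted p = 0.00142) and 0.04 ± 0.06 in light mice (adjusted p = 0.594) against dark mice, and 0.20 ± 0.06 (adjusted p = 0.111) in psilocybin-light against light mice. The call in psilocybin-dark mice was lost with no filter on low counts (adjusted p = 0.0555), with only the groups compared (adjusted p = 0.0745) and without dark mice 1 and 6 (adjusted p = 0.0556). With the hippocampal covariate Kat6b stood at 0.02 (adjusted p = 0.945) in psilocybin-dark and 0.08 (adjusted p = 0.61) in psilocybin-light against dark mice. Its paralog Kat6a fell in light (-0.38 ± 0.10, adjusted p = 0.00851) and psilocybin-light mice (-0.37 ± 0.10, adjusted p = 0.00701), with the highest value of all mice, 1852 normalized counts, in dark mouse 6. Without dark mice 1 and 6 these changes were -0.18 (adjusted p = 0.0649) and -0.17 (adjusted p = 0.0652). Without the 4 mice with the highest cerebellar sums they were -0.24 (adjusted p = 0.0031) and -0.17 (adjusted p = 0.0181). Kat5, the catalytic subunit of the NuA4 complex, rose by 0.14 ± 0.05, 0.12 ± 0.05 and 0.17 ± 0.05 in light, psilocybin-dark and psilocybin-light mice (adjusted p = 0.0175, 0.0483 and 0.00476), the second of which was called in 9 of 24 fits that left out a mouse. Ep300, the closest relative of Crebbp, fell in light mice (-0.21 ± 0.07, adjusted p = 0.0199, lost without dark mouse 3, dark mouse 6 or light mouse 17) and was not called in psilocybin-light mice against any group, with -0.16 ± 0.07 (adjusted p = 0.0599) against dark and 0.05 ± 0.07 (adjusted p = 0.924) against light mice. Kat2a, a subunit of the SAGA coactivator, Kat7, which serves origin licensing, and Kat8, an H4 acetyltransferase, were called in no comparison, with log2 fold changes between -0.10 and 0.18 across the 6 pairs of groups.

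Kat2b, the paralog of Kat2a, had the widest range over the 24 mice of all members, 4.92-fold from lowest to highest. Its values, chosen for display after they were seen, were 219, 268 and 1077 normalized counts in dark mice, 312, 343 and 519 in light mice, 257, 374 and 602 in psilocybin-dark mice and 293, 339.95 and 407 in psilocybin-light mice. The 4 highest values were those of dark mice 6 (1077) and 1 (763), psilocybin-dark mouse 12 (602) and light mouse 18 (519), which are also the 4 mice with the highest cerebellar sums, in the same order. The part of such tissue in these values was not tested. Over all mice its changes against dark mice were -0.35, -0.28 and -0.44, none called. Without these 4 mice, Kat2b was higher than in dark mice by 0.47 in light (adjusted p = 0.00292), 0.49 in psilocybin-dark (adjusted p = 0.00253) and 0.51 in psilocybin-light mice (adjusted p = 0.000909). Hdac8, a class I deacetylase that acts on cohesin, was also highest in dark mice 6 (339) and 1 (334), psilocybin-dark mouse 12 (259) and light mouse 18 (215), against 151 to 195 in all others. Its call in psilocybin-light against dark mice (-0.47 ± 0.16, adjusted p = 0.0206) became -0.11 (adjusted p = 0.187) without the 4 mice. With these 4 mice left out, a choice made after the marker sums were seen, 14, 8 and 20 members were called in light, psilocybin-dark and psilocybin-light against dark mice. Over all genes 6091, 5416 and 6816 were called in that fit, beside 4611, 3575 and 5551 with all mice. Crebbp, Tbl1xr1 and Hdac5 were called lower in psilocybin-light mice against each other group.

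**Figure D4:**
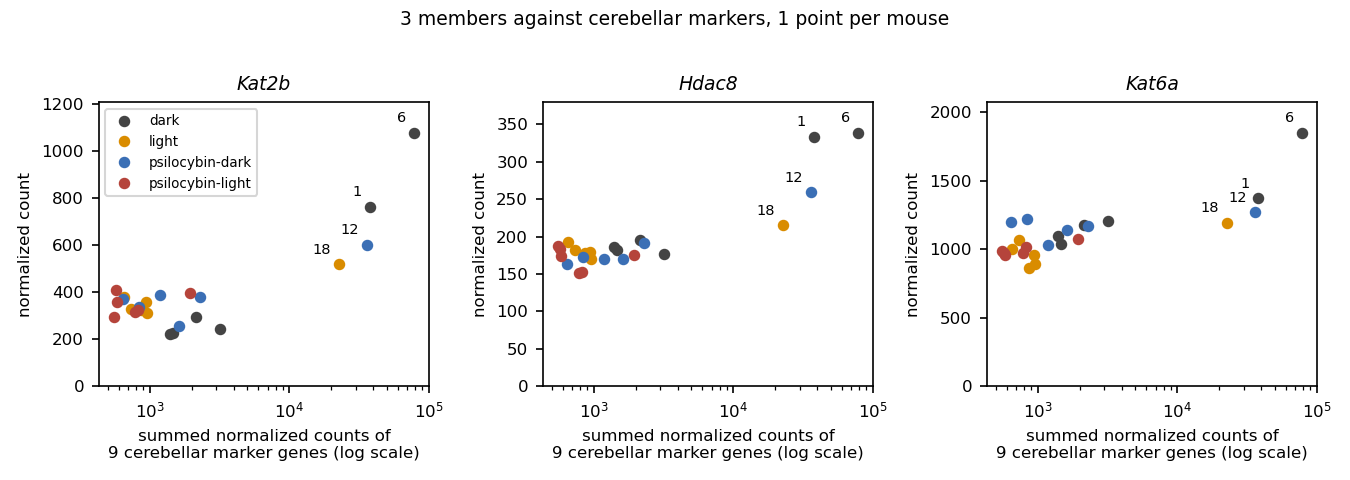
Normalized counts of Kat2b, Hdac8 and Kat6a (vertical axes, from 0) against the summed normalized counts of 9 cerebellar marker genes (horizontal axis, log scale), 1 point per mouse coloured by group. The 4 numbered mice, with sums from 22873.5 to 79142.5, hold the 4 highest values of Kat2b and of Hdac8.

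Of the class I enzymes, Hdac2, which sits in the Sin3, NuRD and CoREST complexes, and Hdac3, the enzyme of the NCoR complex, rose in psilocybin-light against dark mice (0.13 ± 0.04, adjusted p = 0.0162, and 0.19 ± 0.05, adjusted p = 0.00576). The call of Hdac2 was lost with no filter on low counts (adjusted p = 0.0637), without dark mice 1 and 6 (0.10, adjusted p = 0.0637), without the 4 mice with the highest cerebellar sums (0.10, adjusted p = 0.0586) and with the hippocampal covariate (0.11, adjusted p = 0.383). That of Hdac3 was kept in all 9 other settings. Hdac1, the partner of Hdac2, was called in no comparison (-0.03 to 0.06 across the pairs of groups), nor was the tubulin deacetylase Hdac6 (-0.06 to 0.06). Among sirtuins, the mitochondrial desuccinylase Sirt5 fell in light mice (-0.26 ± 0.09, adjusted p = 0.0381), a call lost without dark mouse 1, 4 or 6 or light mouse 13, 14 or 16. Sirt1, a nuclear deacetylase, Sirt2, a tubulin deacetylase abundant in myelinating cells, the mitochondrial Sirt4 and the chromatin-bound Sirt6 were called in no comparison. For Sirt2 the change in light mice was 0.18 ± 0.08 (adjusted p = 0.0763) and for Sirt4 it was 0.25 ± 0.14 (adjusted p = 0.186). Within the corepressor, Ncor1, the scaffold, was called nowhere (-0.10 to 0.12). Tbl1x, the X-linked paralog of Tbl1xr1, rose in psilocybin-dark mice (0.14 ± 0.04, adjusted p = 0.011), with 0.07 ± 0.04 (adjusted p = 0.186) in light and 0.04 ± 0.04 (adjusted p = 0.501) in psilocybin-light mice. In psilocybin-light against dark mice the 3 subunits stood at -0.80 (Tbl1xr1), 0.04 (Tbl1x) and 0.00 (Ncor1).

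Levels per kb of exon divide by the merged exons of all annotated transcripts of a gene, so their order depends on the annotation. By this measure Hdac11 was the most abundant member (662 normalized counts per kb over all mice), followed by Hdac5 (371), Sirt2 (364), Kat7 (278) and Hdac2 (250.3). Sirt5 (13.4), Hdac8 (22.9), Sirt6 (29.4) and Hdac7 (29.6) were the least abundant. Crebbp (63.8) lay below Ep300 (86.3), and Tbl1xr1 (46.3) below Tbl1x (154) and Ncor1 (226). Hdac5 and Sirt2 had 373 ± 38.4 and 339 ± 47.3 per kb (SD, n = 6) in dark mice and 330.2 ± 16.9 and 377 ± 37.4 in psilocybin-light mice, so that their order was not the same in every group.

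**Figure D5:**
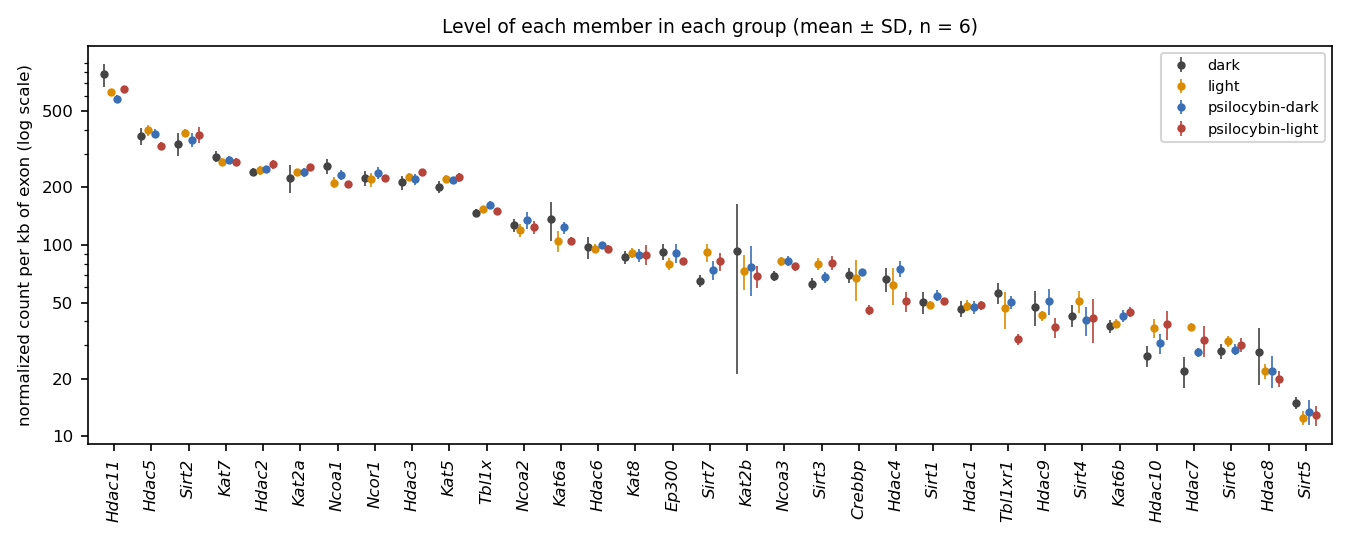
Mean ± SD (n = 6) of normalized counts per kb of exon (vertical axis, log scale) in each group, with the 33 members ordered by their mean over all mice. Levels run from 662 for Hdac11 to 13.4 for Sirt5, and the widest bar is that of Kat2b in dark mice.

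Genes that work with the members were counted from 7 lists. Of all genes tested, 31.9%, 24.7% and 38.4% were called in light, psilocybin-dark and psilocybin-light against dark mice. By direction, 15.4%, 11.9% and 17.4% of all genes were higher and 16.5%, 12.8% and 21% lower in these 3 comparisons. Of 45 other subunits of acetyltransferase complexes, 8, 7 and 15 were called in light, psilocybin-dark and psilocybin-light against dark mice. Phf20, a reader subunit of the Kat8 complex, was lower against dark mice in all 3 (-0.32, -0.19 and -0.28). Of 35 tested subunits of deacetylase complexes, 9, 6 and 12 were called against dark mice, among them Suds3 (0.28, 0.22 and 0.30), a Sin3 subunit. In psilocybin-light against psilocybin-dark mice 4 of the 35 (11.4%) were called, all lower, where 6.38% of all genes were called and 3.78% were lower. The 4 include the repressor Rest (-0.55 ± 0.14, adjusted p = 0.0196) and Gatad2b of NuRD (-0.33 ± 0.08, adjusted p = 0.014). Of 22 acetyl-lysine readers, 3, 4 and 2 were higher and 6, 5 and 12 lower in light, psilocybin-dark and psilocybin-light against dark mice. Their medians were -0.08, -0.04 and -0.12, beside -0.01, -0.02 and -0.02 over all genes. Zmynd8 was higher (0.49, 0.50 and 0.47) and Mllt3, a YEATS-domain reader, lower (-0.37, -0.31 and -0.52) in all 3. Pbrm1, a bromodomain subunit of the PBAF remodeller, was lower in light (-0.35) and psilocybin-light mice (-0.32).

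Among 41 other nuclear receptor coregulators, 2 were higher and 11 lower in light and in psilocybin-light against dark mice, and 4 were higher and 2 lower in psilocybin-dark against dark mice, with medians of -0.07, -0.09 and 0.01. Of the 41, 8 were called, all lower, in psilocybin-light against psilocybin-dark mice (median -0.09 beside -0.01 over all genes). Those with the smallest p there were the Mediator subunit Med1 (-0.33 ± 0.05, adjusted p = 0.000989), the ubiquitin ligase Ube3a (-0.47 ± 0.08, adjusted p = 0.00112) and the coactivator Ppargc1b (-0.80 ± 0.16, adjusted p = 0.00336). Bcor, a corepressor that binds BCL6, was higher than in dark mice in light (0.69 ± 0.11), psilocybin-dark (0.75 ± 0.11) and psilocybin-light mice (0.83 ± 0.11). Cited4, which binds Crebbp and Ep300, was higher in light (1.25 ± 0.19), psilocybin-dark (0.79 ± 0.19) and psilocybin-light mice (1.23 ± 0.19) than in dark mice. Of 31 nuclear receptors, 12, 10 and 10 were called against dark mice. The immediate early receptor Nr4a1 was higher in all 3 (1.87, 1.49 and 2.35), and Rxrg (-2.88, -2.45 and -2.62) and Nr2f2 (-2.51, -2.13 and -2.86) were lower. The 6 tested markers of hypothalamic and subcortical neurons were all lower in the same 3 comparisons (medians -3.60, -3.22 and -3.45). The part of other tissue in the changes of Rxrg and Nr2f2 was not tested.

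Of 30 partners and kinases of class IIa deacetylases, 8, 10 and 9 were higher and 2, 1 and 3 lower in light, psilocybin-dark and psilocybin-light against dark mice, with medians of 0.12, 0.12 and 0.08. The kinases Camk1 (0.56, 0.48 and 0.64) and Camk2g (0.64, 0.52 and 0.75) were higher and Camk2d (-0.99, -0.71 and -1.27) lower in all 3. Sik2, a kinase that retains class IIa enzymes in the cytoplasm, was lower in psilocybin-light than in psilocybin-dark mice (-0.60 ± 0.14, adjusted p = 0.0105). Of 17 tested genes of acetyl-CoA and NAD supply, 7, 7 and 8 were called against dark mice, all lower, with medians of -0.14, -0.12 and -0.17. They include Slc25a1, the mitochondrial citrate carrier, in psilocybin-dark mice (-0.42 ± 0.10). They also include Acly, which makes nuclear and cytosolic acetyl-CoA, in light (-0.34 ± 0.07) and psilocybin-dark mice (-0.25 ± 0.07), and Nampt, which makes the NAD precursor used by sirtuins, in light (-0.23 ± 0.04) and psilocybin-light mice (-0.17 ± 0.04). Sarm1, which consumes NAD, and Nmnat2, which makes it, were lower in psilocybin-light than in psilocybin-dark mice (-0.21 ± 0.05, adjusted p = 0.011, and -0.44 ± 0.07, adjusted p = 0.00145).

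Changes moved with exonic length over all genes in some of the comparisons. With all genes divided into 5 equal classes by exonic length, in the longest class the median log2 fold change was -0.08 in light and -0.09 in psilocybin-light against dark mice, -0.08 in psilocybin-light against psilocybin-dark mice and -0.01 in psilocybin-light against light mice. In the shortest class it was 0.05, 0.04, 0.08 and 0.00. For psilocybin-dark against dark mice the median was -0.01 in the longest and -0.04 in the shortest class. Of the 33 members, 9 lie in the longest class, among them Crebbp, Tbl1xr1, Hdac4, Hdac9 and Ncoa1. Their median in psilocybin-light against psilocybin-dark mice was -0.16, where 8.73% of genes in that class were called lower and 0.485% higher. The part of length in the members' changes was not tested. Exons of 13 members overlap exons of another tested gene, and for 6 of them (Kat5, Hdac5, Hdac7, Sirt1, Sirt3 and Ncor1) the share on the opposite strand exceeds 10% of exonic bases.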

How the data were processed

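RNA from the visual cortex of 24 mice was sequenced as poly-A libraries. Per the labels and the study's methods, the authors trimmed reads with cutadapt, aligned them with STAR (the methods name GRCm39, the labels mm10) and counted reads per Ensembl gene with htseq-count, and they deposited raw counts that were used as they stand. The annotation release and the strand setting are not given in the sources used here. Gene names and positions are from GENCODE vM39 (GRCm39) and matched 14427 of 14464 tested genes. Promoter windows of 250 bases were read from GRCm39. Genes that reached 30 counts in some mouse were fitted with edgeR 4.0.16 (R 4.3.3; TMM, quasi-likelihood test, all 24 mice in 1 model of 4 groups, Benjamini-Hochberg adjustment, threshold 0.05). Standard errors are the absolute log2 fold change divided by the square root of F. To give normalized counts, each library was scaled to the average effective library size. Exact permutation tests are two-sided, over all splits of 6 against 6 mice, and cannot go below p = 0.00216. The biological coefficient of variation was 0.182. DESeq2 1.42.0 served as an alternative, and the others are given at the end. The fit was tested on simulated counts. Each mouse is a replicate.

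The members and lists were chosen with earlier results of these data known. Members were eligible to be shown in full when called in psilocybin-light mice against each other group, in the interaction, or in a comparison whose groups did not overlap. The 10 of these with the smallest adjusted p in any comparison are shown, and others shown by mouse were chosen after their values were seen. From each list, genes are named from among the 3 called genes per comparison and direction with the smallest p, and not all of these are named.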

Additional observations from a re-analysis of the deposited data

Results flagged for a closer look

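In 9 of 132 sets of 6 mice (33 members in 4 groups, 6.82%) the highest or lowest mouse lay far from the rest by Dixon's test, which chance alone gives in about 5% of sets. In normalized counts, Ncoa1 was 2381 in dark mouse 1, against 2822 to 3038 in the other dark mice. Among light mice, Kat2b was 519 in mouse 18 (the others 312 to 380), Kat7 was 1363 in mouse 18 (1513 to 1561) and Kat5 was 891 in mouse 14 (793 to 827). Among psilocybin-dark mice, Hdac8 was 259 in mouse 12 (164 to 191), Sirt4 was 151 in mouse 12 (95.0 to 109) and Sirt1 was 269 in mouse 11 (306 to 325). Among psilocybin-light mice, Crebbp was 546 in mouse 21 (621 to 649) and Sirt4 was 175 in mouse 22 (96.3 to 115).

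The effect of psilocybin differed between mice in light and mice in the dark for 5 members, by the interaction term of the edgeR fit, where 8.75% of all genes were called. The difference on the log2 scale was -0.61 for Crebbp, -0.31 for Hdac5, -0.56 for Hdac7, -0.34 for Ncoa3 and 0.47 for Hdac11. All 5 calls were lost with the hippocampal marker level as a covariate, a fit in which no gene was called by edgeR and 1575 had an unadjusted p under 0.05. There Crebbp stood at -0.37 (adjusted p = 0.487). The covariate can hardly be told apart from the dark group, whose marker sums lay above those of all other mice.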

How the results depend on the processing

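No paired analysis was possible because the groups share no replicate numbers. The size-factor normalization of DESeq2, edgeR's filterByExpr and the fit without light mouse 18 and psilocybin-dark mouse 12 moved no count of called members by over 1.5 times. DESeq2's own test called 3 members, and 405 of all genes, in psilocybin-dark against light mice. With no filter on low counts, 2 members were called in psilocybin-dark against dark mice, 0 in psilocybin-light against light mice and 0 against each of the other 3 groups. With only the groups compared in the fit, these were 2 in psilocybin-dark against dark, 1 in psilocybin-light against light and 1 in psilocybin-dark against light mice. Without dark mice 1 and 6, 10 members were called in psilocybin-light against psilocybin-dark mice and 4 in psilocybin-dark against light mice. Without the 4 mice with the highest cerebellar sums, an alternative chosen after seeing the data, these were 12 and 4, with 8 in the interaction. At an adjusted p under 0.01 the counts were 2 in psilocybin-dark against dark, 0 in psilocybin-light against light, 3 in psilocybin-light against psilocybin-dark mice, 2 in the interaction and 0 against each of the other 3 groups. Over all genes they were 1933, 6, 332, 320 and 4 in the same order. With the hippocampal marker level as a covariate the counts of members were 6, 0 and 9 in light, psilocybin-dark and psilocybin-light against dark mice and 0 in the interaction. In that fit the covariate and the dark group can hardly be told apart. Leaving out each mouse in turn gave 9 to 12 members in light, 4 to 6 in psilocybin-dark and 16 to 20 in psilocybin-light against dark mice, 0 to 3 in psilocybin-light against light, 4 to 7 in psilocybin-light against psilocybin-dark and 0 to 3 in psilocybin-dark against light mice, 4 to 8 in the interaction and 0 to 3 against each of the other 3 groups. These fits called 3937 to 5010, 2751 to 4210 and 4907 to 5782 of all genes in the first 3 comparisons. In the next 3 they called 9 to 155, 585 to 1249 and 3 to 346 of all genes. In the interaction they called 834 to 2092, and 6 to 101 against each of the other 3 groups. Over all genes, 923 calls in psilocybin-light against psilocybin-dark, 66 in psilocybin-dark against light mice and 1266 in the interaction rose to 1791, 688 and 3078 without dark mice 1 and 6 and to 2434, 852 and 3810 without the 4 mice. The 3575 and 88 calls in psilocybin-dark against dark and psilocybin-light against light mice became 2972 and 22 with no filter and 1971 and 58 with only the groups compared. With no filter 14 of all genes were called against each of the other 3 groups, beside 56 in the main fit. With only the groups compared 243 were called in psilocybin-dark against light mice. With the hippocampal covariate 994, 0 and 1163 genes were called in light, psilocybin-dark and psilocybin-light against dark mice. The causes were not tested.

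Single calls lost by leaving out a mouse, with the highest adjusted p reached, were Ep300 in light against dark mice (dark 3, dark 6 or light 17, 0.0519), Kat5 there (light 14, 0.0532) and Sirt5 there (0.0881). In psilocybin-dark against dark mice they were Kat6b (dark 1, dark 4 or psilocybin-dark 10, 0.0667), Hdac7 (dark 1, dark 6 or psilocybin-dark 8, 10 or 11, 0.0749), Kat5 (15 of 24 fits, 0.117) and Ncoa1 (18 of 24 fits, 0.122). In psilocybin-light against dark mice they were Hdac4 (psilocybin-light 24, 0.0579), Hdac5 (dark 3 or psilocybin-light 20 or 22, 0.0765), Hdac8 (dark 1, dark 6 or psilocybin-light 24, 0.0772) and Hdac9 (dark 3, dark 5 or psilocybin-light 19, 0.0667). Against psilocybin-dark mice they were Hdac5 (9 of 24 fits, 0.0996) and Hdac9 (psilocybin-dark 7 or psilocybin-light 19 or 24, 0.0625), and in the interaction Hdac5 (light 14, 0.0505) and Hdac7 (psilocybin-dark 10 or 11 or psilocybin-light 24, 0.055). No direction changed in these edgeR fits.

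Directions turned for Kat2b, which without dark mice 1 and 6 had log2 fold changes of 0.60, 0.67 and 0.52 in light, psilocybin-dark and psilocybin-light against dark mice and -0.76 in the interaction, and without the 4 mice 0.47, 0.49, 0.51 and -0.45. With the hippocampal covariate Hdac11 stood at 0.0024 in psilocybin-light against dark mice.

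With the light exposure of the sample labels, the groups exchange names, and 3 members were called in psilocybin-dark against dark, 0 in psilocybin-light against dark, 7 in psilocybin-light against light, 18 in psilocybin-dark against light mice and 0 against each of the other 3 groups. Over all genes tested the calls numbered 88, 66, 3575, 5551 and 8 in the same order. The reversed log2 fold changes were, in light against dark mice, Ep300 0.21, Kat5 -0.14, Kat6a 0.38, Hdac7 -0.77, Hdac10 -0.48, Hdac11 0.31, Sirt3 -0.34, Sirt5 0.26, Sirt7 -0.50, Ncoa1 0.29 and Ncoa3 -0.25. In psilocybin-dark against dark mice, Crebbp -0.56, Hdac5 -0.27, Hdac7 -0.23, Hdac11 0.0495, Tbl1x -0.033 and Ncoa3 -0.086. In psilocybin-light against dark mice, Crebbp 0.11, Kat5 -0.02045, Kat6a 0.23, Hdac3 -0.0496, Hdac4 0.28, Hdac7 -0.44, Hdac8 0.014, Hdac9 0.26, Hdac10 -0.27, Sirt3 -0.22, Sirt7 -0.31, Tbl1xr1 0.10 and Ncoa1 0.14. In psilocybin-light against light mice, Crebbp 0.056, Hdac5 0.035, Hdac7 0.33, Hdac11 -0.42, Tbl1x 0.14 and Ncoa3 0.26. In psilocybin-light against psilocybin-dark mice, Crebbp 0.67, Hdac4 0.57, Hdac5 0.21, Hdac9 0.46, Sirt3 -0.25 and Tbl1xr1 0.64. In psilocybin-dark against light mice, Crebbp -0.61, Kat5 0.17, Kat6a -0.37, Hdac3 0.19, Hdac4 -0.38, Hdac7 0.54, Hdac8 -0.47, Hdac9 -0.36, Hdac10 0.55, Sirt3 0.37, Sirt7 0.34, Tbl1xr1 -0.80 and Ncoa1 -0.31. In the interaction of psilocybin and light, Crebbp 0.61, Hdac5 0.31, Hdac7 0.56, Hdac11 -0.47 and Ncoa3 0.34.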
